A study of Mus musculus with 12 samples.

Results

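The transporters that carry cytarabine (Ara-C) and natural nucleosides across membranes were followed in 4 mouse leukaemia cell lines. The genes are Slc29a1, Slc29a2, Slc29a3 and Slc28a3, and every probe set that the platform annotation pairs with 1 of these symbols was taken, which gave 8 of 45037 probe sets for 4 of 18193 measured genes. B117H is an Ara-C-resistant line grown out of the sensitive parental line B117P, and B140H is one grown out of the sensitive line B140P. All of them are murine leukaemia lines from BXH-2 mice, a strain that develops myeloid leukaemia driven by a retrovirus. RNA of each line was measured on 3 arrays with the letters A, B and C, and whether these came from separate cultures is not stated, so the p-values cover no more than array-to-array spread within a line, which may be technical. The same treatment and growth text, on rising Ara-C exposure and passage free of drug, accompanies every sample. Each lineage has 1 resistant line, so what went with resistance and what is particular to that derived line cannot be told apart.

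Ara-C is a hydrophilic analogue of deoxycytidine that crosses the plasma membrane on nucleoside carriers and acts only after kinases in the cell have phosphorylated it. Slc29a1 and Slc29a2 encode ENT1 and ENT2, equilibrative carriers that move nucleosides down their gradient, and ENT1 is the main route of Ara-C into leukaemia cells. Slc29a3 encodes ENT3, which sits mainly in lysosomal and other inner membranes. Slc28a3 encodes CNT3, which couples nucleoside entry to the sodium gradient and accepts purines and pyrimidines.

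Levels are RMA intensities on a linear scale, differences are on the log2(value + 1) scale, and a probe set was called when its limma p-value, adjusted over all 45037 probe sets, was under 0.05. Array medians lay between 118 and 132 intensity units, and across probe sets the correlation within a line was 0.988 to 0.997. Of 11 measured myeloid leukaemia markers, 11 lay above the median probe set in B117H and in B117P, and 7 did in B140H and in B140P. Those not above it were Itgam, Kit and Cd34 in both, with Fcgr3 in B140H and Lyz2 in B140P. Of 5 measured B cell markers, 4 lay above the median probe set in B140H and B140P and 1 did in B117H and B117P. Of measured T cell markers 3 of 6, and of erythroid ones 2 of 4, lay above the median probe set in each line. Of 6 stromal markers 3 did in B117P and 2 in B117H, B140H and B140P. The T cell, erythroid and stromal markers of each list summed to 868 intensity units at most on any array. Arrays of the same letter deviated together between B140H and B140P (correlations of 0.360 to 0.587), but array B of B117P did not go with array B of B117H (0.0278) or of B140H (-0.0432). Array B of B140H stood apart in its median of 131.5 intensity units, where the others had 117.8 to 124.1.

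Slc29a1, the ENT1 gene, was called neither lower nor higher in either resistant line. Its 1 probe set, 1451782_a_at, gave a signal at or above the 84.6th percentile of all probe sets in every line. It measured 1280, 1201 and 983 intensity units on arrays A, B and C of B117H, against 1365, 782.5 and 979 in B117P. The arrays of these lines overlapped, with B117P holding both the highest and the lowest value. It measured 1896, 1728 and 1393 intensity units in B140H, against 1462, 1331 and 1056 in B140P. Here the ranges also overlapped, yet each B140H array lay above the B140P array of its own letter.

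The change of Slc29a1 was 0.18 ± 0.20 (SE, adjusted p = 0.860) in B117H relative to B117P, and the 95% interval ran from 0.842-fold to 1.52-fold. In B140H relative to B140P it was 0.38 ± 0.20 (SE, adjusted p = 0.410), with an interval of 0.972-fold to 1.75-fold. A fall of Slc29a1 beyond 0.842-fold in B117H, or beyond 0.972-fold in B140H, was thus outside these intervals. Within letters the B140H difference was even, at 0.38, 0.38 and 0.40 for A, B and C, while the B117H difference was -0.09, 0.62 and 0.01. In 41.9% of all probe sets the 3 same-letter differences between B140H and B140P had 1 sign, so 3 of 3 alone does not single out Slc29a1. With the replicate letter as a block the adjusted p in B140H was 0.117 with all arrays and 0.0540 with the arrays of B140H and B140P only.

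Array B of B117P bears on this result, since its 782.5 intensity units were the lowest Slc29a1 value of all 12 arrays. A fit without that array and with the letter as a block, chosen after these values had been seen, gave the same B140H change of 0.38 an adjusted p of 0.00822. In that fit the B117H change of Slc29a1 was -0.04 (adjusted p = 0.848), and the B140H change exceeded it by 0.43 (adjusted p = 0.0296). Both were called in that setting only, 1 of 27 for the B140H change and 1 of 25 for the difference. Over all arrays with no block the difference between the changes was 0.21 ± 0.28 (SE, adjusted p = 0.793). C arrays gave lower Slc29a1 values than A arrays over all lines by a log2 difference of -0.44 ± 0.12 (SE, adjusted p = 0.0291), a call that 6.22% of all probe sets shared in that direction.

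**Figure D1:**
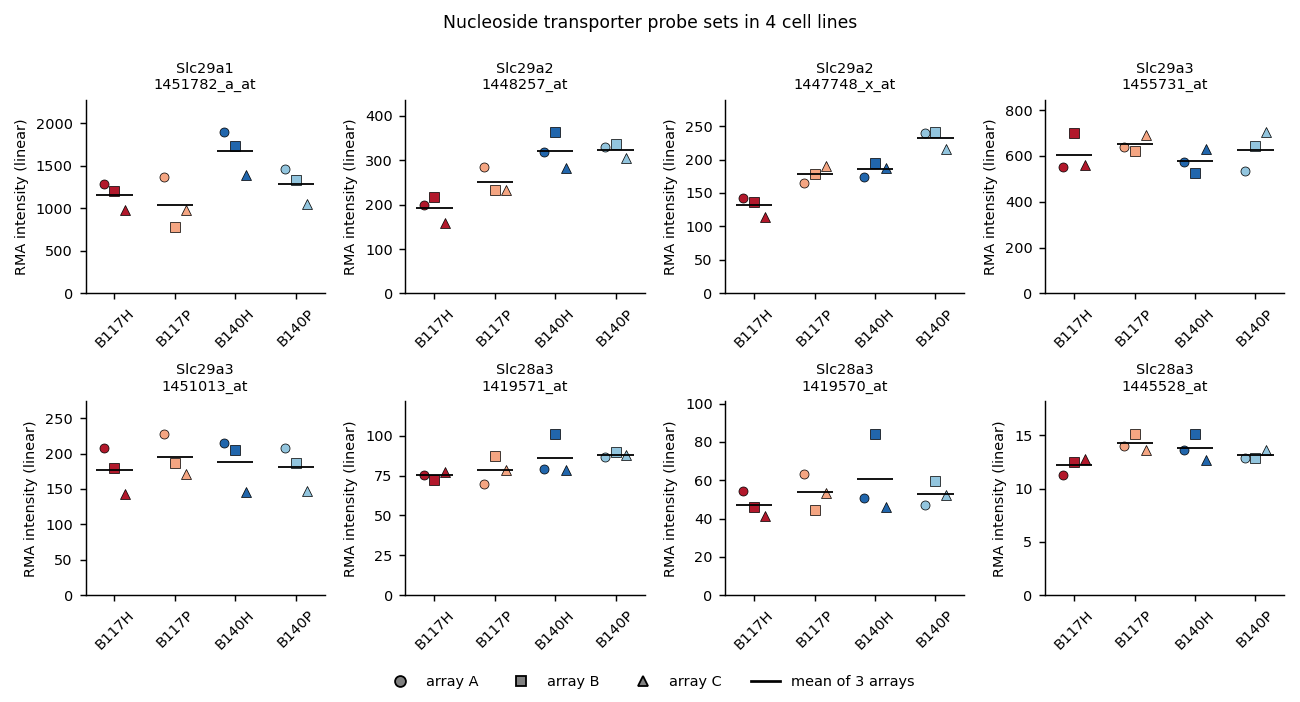
RMA intensity (linear scale) of the 8 transporter probe sets in B117H, B117P, B140H and B140P, with a circle, square and triangle for arrays A, B and C and a bar for the mean of 3 arrays. Slc29a1 reaches 1896 units in B140H, Slc29a2 is lowest in B117H in both of its panels, and the Slc28a3 panels stay at 101 units or less.

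Slc29a2, the ENT2 gene, was lower in B117H than in B117P by both of its probe sets, and the dimmer of them passed the test. The brighter one, 1448257_at, measured 200, 217 and 159 intensity units in B117H, against 285, 233.5 and 233.4 in B117P. The dimmer one, 1447748_x_at, measured 143, 137 and 114 intensity units in B117H, against 165, 179 and 190.2 in B117P. In both probe sets every B117H array lay below every B117P array.

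The brighter Slc29a2 probe set changed by -0.39 ± 0.13 (SE, adjusted p = 0.128) in B117H, an interval of 0.625-fold to 0.935-fold, and was not called. The dimmer one was lower in 3 of 3 letters, but the letters did not pair these lines. In 39% of all probe sets the 3 same-letter differences between B117H and B117P had 1 sign. The dimmer Slc29a2 probe set changed by -0.44 ± 0.11 (SE, adjusted p = 0.0228), an interval of 0.630-fold to 0.865-fold, and was called. That call was lost on leaving out B117P B (adjusted p = 0.0703), B117P C (0.106) or B117H C (0.113) and with only the arrays of B117H and B117P in the fit (0.0637). Leaving out every A array (adjusted p = 0.0503), every B array (0.167) or every C array (0.466) also ended it. With the mean of its probe sets, Slc29a2 changed by -0.41 in B117H (adjusted p = 0.0360). The name ending _x_at marks probes that can also match other transcripts, so this signal is not certain to come from Slc29a2 alone.

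In B140H the Slc29a2 probe sets differed from each other. The brighter one measured 319, 364 and 281.5 intensity units in B140H, against 330.3, 337 and 305 in B140P, with overlapping ranges. Its change was -0.02 ± 0.13 (SE, adjusted p = 0.971), with an interval of 0.807-fold to 1.21-fold. The dimmer one measured 174, 195 and 187 intensity units in B140H, against 239.6, 241 and 215.5 in B140P, and each B140H array lay below each B140P array. Its change of -0.32 ± 0.11 (SE, adjusted p = 0.129) was not called. Averaged over both lineages the dimmer probe set fell by 0.38 (adjusted p = 0.00833), which leaving out every A array (adjusted p = 0.0579), every B array (0.123) or every C array (0.133) ended. The brighter one averaged -0.20 ± 0.09 (SE, adjusted p = 0.343) and was not called. The test of the difference between the lineages' changes called neither probe set (0.37, adjusted p = 0.352, for the brighter one and 0.12, adjusted p = 0.786, for the dimmer one). The fit without array B of B117P and with the letter as a block was chosen after values had been seen. It put the brighter one at -0.51 for B117H (adjusted p = 0.00711) and at -0.26 on average (adjusted p = 0.0285). There the lineages differed by 0.49 in their changes of the brighter one (adjusted p = 0.0298). This probe set was called in 3 of 28 settings for B117H, 2 of 26 for the average and 1 of 26 for the difference.

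**Figure D2:**
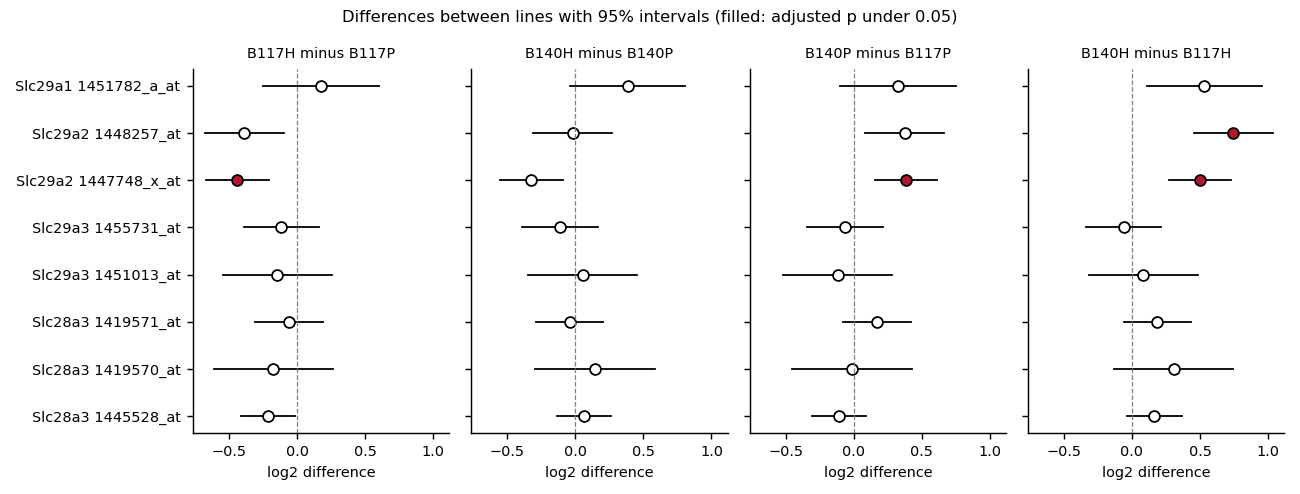
Log2 differences between lines for the 8 probe sets (points) with 95% intervals (lines), filled where the adjusted p was under 0.05. Filled points are those of Slc29a2, at -0.44 for B117H minus B117P, 0.38 for B140P minus B117P, and 0.74 and 0.50 for B140H minus B117H.

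Between the lineages, Slc29a2 was higher in B140H than in B117H by both probe sets. The brighter one was higher by 0.74 ± 0.13 (SE, adjusted p = 0.00115), or 1.68-fold, and the dimmer one by 0.50 ± 0.11 (SE, adjusted p = 0.00371), or 1.41-fold. Every B140H array lay above every B117H array in both. The same held for the Slc29a1 probe set and the brightest of Slc28a3, which were not called. Separation of the arrays alone thus does not single out Slc29a2 among the transporters, and its share over all probe sets is not given here. The call of the brighter Slc29a2 probe set held under every setting tried. That of the dimmer one ended without all B (adjusted p = 0.0629) or all C arrays (0.0769). Beside the Slc29a2 difference, the summed B cell markers ran from 4160 to 5090 intensity units in B140H and from 423 to 442 in B117H, and the summed myeloid markers from 15100 to 17500 in B140H and from 46000 to 50900 in B117H. Not all markers followed these sums. In B140H against B117H limma called 3 of 5 B cell markers higher and 0 lower, and 1 of 11 myeloid markers higher and 8 lower. Of all genes it called 13.3% higher and 13.7% lower. The part of these markers in the Slc29a2 difference was not tested, and in such bulk RNA fewer cells of a type and less RNA per cell cannot be told apart.

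The parental lines differed in the same direction for Slc29a2, with less certainty. The brighter probe set was higher in B140P than in B117P by 0.38 ± 0.13 (SE, adjusted p = 0.0772, or 0.0184 with the letter as a replicate block). It was called in 8 of 28 settings, among them without B117P A (adjusted p = 0.0406) and without B117H C (0.0475). The dimmer one was higher by 0.38 ± 0.11 (SE, adjusted p = 0.0213), which was no longer called on leaving out B117P A (adjusted p = 0.0803), B117P B (0.0552, or 0.0551 with the block as well), B140P A (0.0763) or B140P B (0.0849). Nor was it on leaving out every A array (adjusted p = 0.198) or every B array (0.187). For both probe sets the line means ran, from high to low, B140P, B140H, B117P and B117H. Among neighbours in that order only B117P and B117H were told apart, and only by the dimmer probe set.

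Slc29a1 had the order B140H, B140P, B117H and B117P, and no neighbours in it differed beyond their spread (adjusted p of 0.410 to 0.860). Its line means were 1673 ± 256, 1283 ± 207, 1155 ± 154 and 1042 ± 297 intensity units in that order (SD, n = 3). The ends of the order did differ, with B117P minus B140H at -0.71 ± 0.20 (SE, limma adjusted p = 0.0219). That pair differs in both lineage and resistance, lies outside the 6 comparisons and has no alternative fits given here. B140H exceeded B117H by 0.53 ± 0.20 (SE, adjusted p = 0.0777), with a difference in each letter of 0.57, 0.53 and 0.50. In 52.3% of all probe sets the 3 same-letter differences between these lines had 1 sign. With the letter as a replicate block the Slc29a1 difference passed the test (adjusted p = 0.00938). So it did with only the arrays of these 2 lines (0.0472), without B117P A (0.0330) and without B140H C (0.0450). It was called in only 6 of 27 settings, and the adjusted p reached 0.254. The parental lines differed by 0.32 ± 0.20 (SE, adjusted p = 0.366), and array B gave the largest same-letter difference, 0.77.

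**Figure D3:**
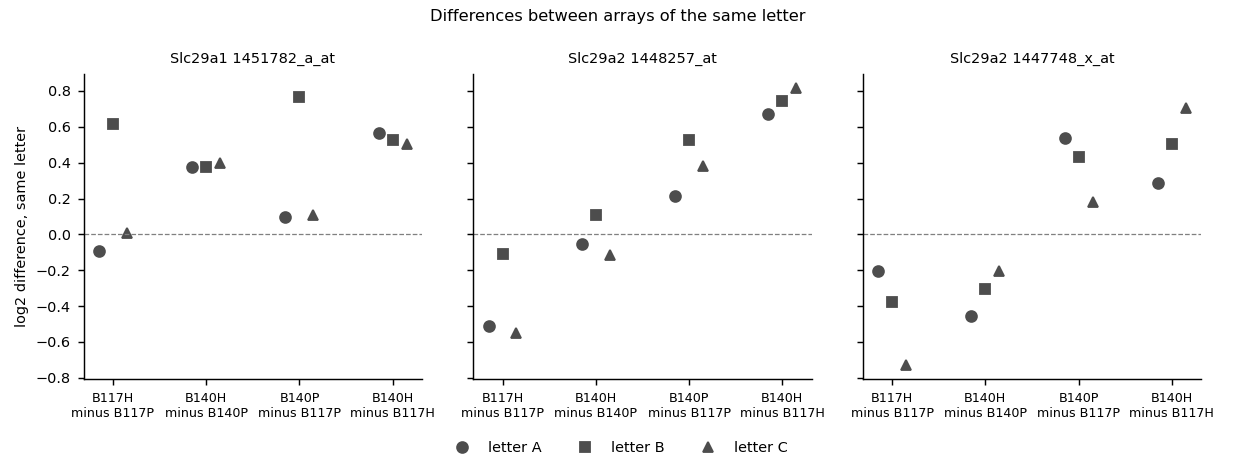
Log2 differences between arrays of the same letter (circle A, square B, triangle C) for Slc29a1 and both Slc29a2 probe sets in 4 comparisons of lines. For Slc29a1 the letters lie between 0.38 and 0.40 in B140H minus B140P and between -0.09 and 0.62 in B117H minus B117P.

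Slc29a3, the ENT3 gene of inner membranes, showed no called difference among the 4 lines. Its brighter probe set, 1455731_at, measured 552, 702 and 559 intensity units in B117H, against 639, 624 and 690.1 in B117P, and 572.5, 527 and 632 in B140H, against 533, 642.5 and 705 in B140P. Arrays of resistant and parental lines overlapped in both lineages. Its changes were -0.11 ± 0.13 in B117H (SE, adjusted p = 0.861) and -0.11 ± 0.13 in B140H (SE, adjusted p = 0.770), with intervals of 0.763-fold to 1.12-fold and 0.764-fold to 1.12-fold. The difference between these changes was 0.002 ± 0.18 (SE, adjusted p = 0.998).

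The dimmer Slc29a3 probe set, 1451013_at, ran from 144 to 208 intensity units in B117H, against 171 to 228 in B117P, and from 145 to 214.5 in B140H, against 147 to 207 in B140P. Its changes were -0.14 (adjusted p = 0.897) and 0.06 (adjusted p = 0.934). In each line its A array was the highest and its C array the lowest, a log2 difference of C minus A of -0.50 ± 0.08 (SE, adjusted p = 0.00131). The brighter Slc29a3 probe set did not share this, with 0.17 ± 0.10 (SE, adjusted p = 0.326), and the pair correlated at -0.395 over the 12 arrays. None of the 4 pairs of lines in the comparisons of either Slc29a3 probe set passed the limma test or had an unadjusted p under 0.05.

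Slc28a3, the CNT3 gene, gave low signals and no called difference. The brightest of its 3 probe sets, 1419571_at, measured 75.4, 72.5 and 77.4 intensity units in B117H, against 69.5, 87.4 and 78.85 in B117P. It measured 78.9, 101 and 78.6 intensity units in B140H, against 86.75, 89.7 and 88.2 in B140P. It lay below the median probe set in every line, at the 35.45th to 40.7th percentile, and the others lay at the 22.3rd to 27.0th (1419570_at) and the 1.47th to 2.75th (1445528_at). The values carry no detection calls, and probe sets differ in how strongly they bind, so these ranks do not settle whether the gene was transcribed.

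The brightest Slc28a3 probe set changed by -0.06 ± 0.11 in B117H (SE, adjusted p = 0.952) and by -0.04 ± 0.11 in B140H (SE, adjusted p = 0.913), with intervals of 0.809-fold to 1.14-fold and 0.818-fold to 1.15-fold. The second, 1419570_at, changed by -0.17 and 0.14 (adjusted p = 0.875 and 0.823), and its highest value, 84.3 intensity units, was that of array B of B140H. Without that array, which had the highest array median, the B140H change was -0.12 (adjusted p = 0.870) for the second probe set and -0.16 (adjusted p = 0.578) for the brightest one. The third, 1445528_at, ran from 11.3 to 15.15 intensity units over all 12 arrays, where the lowest value of any probe set was 7.65. Its B117H arrays lay below its B117P arrays (a change of -0.21, adjusted p = 0.273).

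Counted together, limma called 0 of the 8 probe sets higher and 1 lower in B117H, where 3.49% of all probe sets were called higher and 3.46% lower. In B140H 1 of the 8 had an unadjusted limma p under 0.05. There limma called 0 higher and 0 lower, against 1.98% and 2.67% of all probe sets called. The higher share of those B140H calls was 42.5%, or 32.4% with arrays centred on their median, and with a replicate block 3521 probe sets were called in place of 2093. The median change of the 8 was -0.16 in B117H and 0.02 in B140H, against -0.01 and 0.05 over all probe sets. Arrays of resistant and parental lines did not overlap in 3 of 8 probe sets in B117H and 1 of 8 in B140H, where the shares over all probe sets were 21.1% and 18.8%. The average over lineages called 0 higher and 1 lower of the 8 (2.54% and 2.93% of all). The difference between lineages called 0 of 8, against 7.58% of all probe sets called. In that test 0 of 8 had an unadjusted limma p under 0.05, a cut-off whose share over all probe sets is not given here. For B140P against B117P 1 of 8 was called higher (9.2% of all) and 0 lower (8.76%), and for B140H against B117H 2 of 8 higher (10.6% of all) and 0 lower (10.1%). Each of these calls was of a Slc29a2 probe set, and no probe set of Slc29a1, Slc29a3 or Slc28a3 was called in these comparisons. With these shares over all probe sets, that lack of calls does not set the other transporters apart.

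Other carriers of nucleosides and nucleobases were not called in the resistant lines. Of 5 listed genes 2 were measured by probe sets with a single symbol, and limma called 0 of them in B117H and 0 in B140H, with 0 at an unadjusted p under 0.05 in each. Of all genes, 4.73% were called higher and 4.68% lower in B117H, and 2.81% and 3.75% in B140H. Slc29a4, which encodes a monoamine and adenosine carrier, changed by 0.01 in B117H and -0.04 in B140H (adjusted p = 0.995 and 0.953). That probe set, too, has a name ending in _x_at, and the other Slc29a4 probe set ran only from 19.3 to 25.5 intensity units, with changes of 0.07 and 0.02 (adjusted p = 0.915 and 0.952). Slc43a3, which encodes a purine nucleobase carrier, changed by 0.09 and -0.06 (adjusted p = 0.867 and 0.862). Slc43a3 separated the lineages, with a mean of 1970 intensity units in B140H against 820 in B117H, a difference of 1.26 (adjusted p = 9.16e-07). The parental difference of Slc43a3 was 1.41 (adjusted p = 3.57e-07), and no array left out ended either call.

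Of 3 carriers of nucleotides in mitochondria and vesicles, limma called 0 in B117H, with 1 at an unadjusted p under 0.05. Of all genes it called 4.73% higher and 4.68% lower there. In B140H it called 0 of the 3 higher and 1 lower, against 2.81% and 3.75% of all genes. The 1 was Slc25a33, a mitochondrial carrier of pyrimidine nucleotides, which fell by 0.53 in B140H (adjusted p = 0.00635). It measured 639 intensity units in B140H and 921 in B140P. Leaving out every A array (adjusted p = 0.0542), every B array (0.124) or every C array (0.132) ended its call. Its B117H change of -0.29 (adjusted p = 0.118) was not called, but was in 1 of 27 settings, without B117H A (adjusted p = 0.0403). Averaged over both lineages Slc25a33 changed by -0.41 (adjusted p = 0.00324), a call kept in 23 of 25 settings. The difference between lineages was not called (-0.24, adjusted p = 0.415).

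Of 9 listed export pump genes, which include pumps for drugs and conjugates as well as for nucleotides, limma called 3 lower in B117H and 1 lower in B140H, where 4 and 2 had an unadjusted p under 0.05. It called 0 higher in either line. Of all genes 4.68% were called lower in B117H and 3.75% in B140H. Abcc4, which encodes an exporter of nucleoside monophosphates, fell in both lines. It measured 3007 intensity units in B117H against 4779 in B117P, and 1032 in B140H against 1855 in B140P. Its changes were -0.66 (adjusted p = 0.00107) and -0.84 (adjusted p = 0.000298), with the change in B117H no longer called on leaving out every C array (adjusted p = 0.0572). Abcc1 and Abcc2, which encode exporters of conjugated compounds, changed by -0.60 (adjusted p = 0.000948) and -1.71 (adjusted p = 6.11e-06) in B117H. In B140H they changed by 0.02 and 0.03 (adjusted p = 0.947 and 0.945), and the difference between lineages was called for Abcc1 (0.62, adjusted p = 0.00828) and for Abcc2 (1.74, adjusted p = 0.000114). The Abcc1 difference was no longer called on leaving out every A (adjusted p = 0.116), B (0.115) or C array (0.0890). The median change of the 9 genes was -0.22 in B117H and 0.04 in B140H, against -0.005 and 0.05 over all genes.

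Behind the carriers, of 14 measured genes of Ara-C activation limma called 2 higher and 1 lower in B117H and 1 higher and 1 lower in B140H, where 6 and 2 had an unadjusted p under 0.05. Of all genes 4.73% were called higher and 4.68% lower in B117H, and 2.81% and 3.75% in B140H. The lower one in each was Dck, the kinase of the first phosphate, at -7.96 in B117H (adjusted p = 7.73e-13) and -3.04 in B140H (adjusted p = 1.92e-08). Its B117H level of 10.2 intensity units is near the lowest value on the arrays, so the size there is not exact. The higher ones were the mitochondrial kinase genes Dguok in both lines and Tk2 in B117H. Leaving out single arrays ended the Dguok call in B140H (adjusted p up to 0.107) and the Tk2 call (up to 0.198), and the Dguok call in B117H ended without all B (adjusted p = 0.0941) or all C arrays (0.188). Of 10 measured genes of Ara-C inactivation 1 was called higher and 0 lower in B117H, and 0 were called in B140H, with 5 in B117H and 2 in B140H at an unadjusted limma p under 0.05. The 1 was the nucleotidase gene Nt5c3b, a call that single arrays could also end (adjusted p up to 0.0826). Of 7 measured genes of adenosine handling limma called 0 in either line, with 2 in B117H and 1 in B140H at an unadjusted p under 0.05. The median change in B117H was -0.06 for the activation genes, 0.06 for the inactivation genes and -0.01 for the adenosine genes. In B140H these medians were 0.06, 0.08 and -0.06, and the medians over all genes were -0.005 in B117H and 0.05 in B140H.

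**Figure D4:**
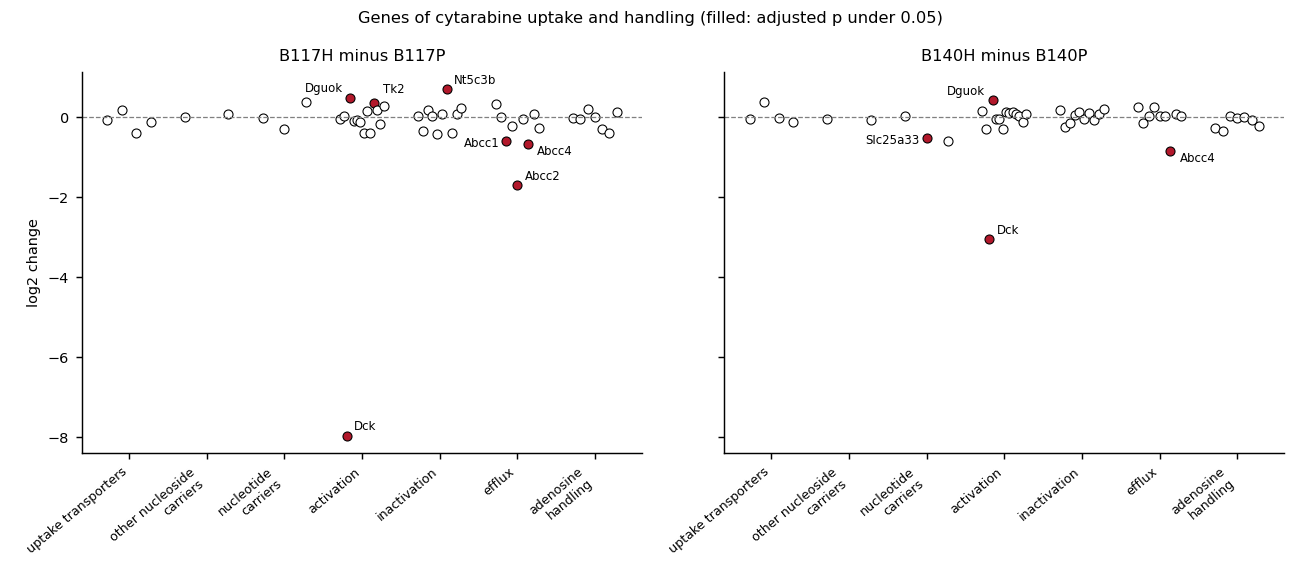
Log2 changes of single genes (points, filled and named where the adjusted p was under 0.05) in B117H minus B117P and B140H minus B140P, by list. The 4 uptake transporters lie between -0.39 and 0.38, while Dck lies at -7.96 and -3.04.

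Likeness was measured as Pearson's r over the 12 arrays between a member's brightest probe set and 10777 or 10778 other brighter genes, as a description only, since the arrays share lines and letters. Slc29a1 was most like Rab8a, a vesicle transport GTPase gene (0.967), Pdhx, a component of pyruvate dehydrogenase (0.949), and Eftud2, a splicing GTPase gene (0.948). Rab8a averaged 2190 intensity units in B140H against 1959 in B140P, and 1904 in B117H against 1807 in B117P, the order Slc29a1 had. Slc29a2 was most like Dnajc2, a ribosome-associated chaperone gene (0.990), Mtres1 (0.973) and Atp23 (0.973), and 733 genes exceeded 0.8 with it. Dnajc2 was lowest in B117H, at 3257 intensity units against 3747 in B117P, and stood at 4339 in B140H against 4400 in B140P. Slc29a3 had 3 genes above 0.8, Gpatch4 (0.847), Kif20a (0.826) and Ssb (0.812), and Slc28a3 was most like Ccrl2 (0.904), Tcea2 (0.898) and Krtap3-1 (0.885). Without array B of B140H, left out after its values were seen, the 3 Slc28a3 values were 0.835, 0.82 and 0.8, and those of Slc29a3 were 0.814, 0.897 and 0.767. Between members, the brightest probe sets of Slc29a1 and Slc29a2 correlated at 0.63.

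The mouse genes lie apart from each other, Slc29a1 on chromosome 17, Slc29a2 on chromosome 19, Slc29a3 on chromosome 10 and Slc28a3 on chromosome 13. Among the 10 nearest measured genes of each, 1 at most had an unadjusted limma p under 0.05 in B117H. There limma called 0 of each 10, where 4.73% of all genes were called higher and 4.68% lower. In B140H it called 0 near Slc29a1, Slc29a2 and Slc28a3, with 1, 0 and 1 at an unadjusted p under 0.05. Of all genes it called 2.81% higher and 3.75% lower there. Near Slc29a3 it called Psap, the precursor of lysosomal saposins, which rose by 0.65 (adjusted p = 0.00268), a call lost on leaving out every A array (adjusted p = 0.0507) or every B array (0.107). Near Slc29a1, 3 of 10 genes were higher in B140H than in B117H, against 13.3% of all genes. They were Slc35b2, its next neighbour and a nucleotide sulfate carrier gene, at 0.92 (adjusted p = 8.45e-05), Capn11 at 0.66 (0.000794) and Tmem63b at 0.55 (0.000606). The 3 were also higher in B140P than in B117P, where 12% of all genes were, at 0.48, 0.47 and 0.42 (adjusted p = 0.0119, 0.00953 and 0.00501). The parental call of Slc35b2 was lost without B117P B (adjusted p = 0.0612) or B140P B (0.0571), and those of Capn11 and Tmem63b on leaving out every B array (0.0745 and 0.0752), as was that of Capn11 without every A array (0.140) and that of Tmem63b without every C array (0.152).

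Near Slc29a3, 2 of 10 genes were higher in B140H than in B117H and 2 lower, against 13.3% and 13.7% of all genes. Psap was higher by 0.87 (adjusted p = 3.73e-05), and Pcbd1, a cofactor-recycling enzyme gene, by 0.46 (0.0494), a call that any of 10 single arrays could end (adjusted p up to 0.200). Vsir, an immune checkpoint gene, and Sgpl1, the sphingosine phosphate lyase gene, were lower by a log2 difference of -0.72 and -0.88 (adjusted p = 0.000276 and 0.00026). Both were also lower in B140P than in B117P, at -0.87 and -1.10 (adjusted p = 6.02e-05 and 4.14e-05), where 11.8% of all genes were. Near Slc29a2 only Zdhhc24 was called, higher in B140H than in B117H by 0.47 (adjusted p = 0.0281), a call that single arrays could also end (up to 0.120). Near Slc28a3 only Naa35 was called, lower in B140P than in B117P at -0.46 (adjusted p = 0.00344), a call lost on leaving out every A array (0.0618) or every B array (0.0546).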

How the data were processed

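Total RNA was extracted with RNeasy Midi kits, amplified and labelled with biotin, per the labels' protocols. The deposited intensity values are RMA summaries, as the submitters' processing notes name RMA, with 1 column per array. The RMA version and settings were not given in the sources used here, nor was a genome build. The linear scale was read from the values, 7.65 to 36675. RMA shares probes' behaviour over arrays and compresses differences among low values.

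Of 45101 probe sets 64 array controls were left out. The platform annotation gave 34945 of the rest 1 symbol, 932 several and 9160 none. Probe sets with several symbols named no gene, which leaves Slc28a2 without a value here. A gene was represented by its brightest probe set. limma 3.58.1 in R 4.3.3 was run on log2(value + 1) of all 12 arrays with 1 coefficient per line (8 residual and 4.65 prior degrees of freedom), two-sided, with Benjamini-Hochberg adjustment over all 45037 probe sets within each of 6 comparisons. The number of arrays limits the precision. Intervals are 95% intervals of the fit.

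All probe sets of the 4 transporters are reported. From the lists, called genes and the other nucleoside carriers may be named, with the 3 genes most like each transporter and called genes among the 5 nearest on either side. Neighbours and chromosomes come from the reference gene table (GRCm38.p6), which held 4 of 4 transporters. The members and lists were chosen with earlier results of these data known.

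The letters were checked by the correlation of deviations from line means: the lowest over A, B and C was 0.360 for B140H with B140P, 0.349 for B117H with B140H, 0.367 for B117H with B140P, 0.131 for B117P with B140P, 0.0278 for B117H with B117P and -0.0432 for B117P with B140H. They were taken to pair the first 4 of these 6 pairs of lines and not the other 2, so a block over all 12 arrays includes B117P arrays that do not pair throughout. A simulation of 12 arrays over 45037 probe sets used the fitted spread with independent noise and no letter effect. Of log2 changes set into B117H, 40.3% of those of 0.5 (67 probe sets), 91% of 1 (67) and 100% of 2 (66) were recovered. Of the unchanged probe sets 14 were called. Far fewer probe sets changed there than the 3131 called in B117H, so recovery on the real arrays may differ. Alternatives were a replicate block, the compared arrays only, other normalizations and pseudocounts, brighter probe sets, an intensity trend, array weights, probe-set means and left-out arrays.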

Additional observations from a re-analysis of the deposited data

How the results depend on the processing

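No result of the transporters changed direction while called. Of the called ones, the brighter Slc29a2 probe set in B140H against B117H kept its call under every alternative run, while the other Slc29a2 calls ended without certain arrays, as given with each result. For the B117 lines, whose letters did not pair, the replicate block gave the brighter Slc29a2 probe set an adjusted p of 0.0313, and 4743 called probe sets in place of 3131. The count of called probe sets was 3521 in B140H against B140P with the replicate block, 4000 for the average and 5364 for the difference between lineages, in place of 2093, 2463 and 3413. With the block and without array B of B117P, chosen after seeing the data, the counts were 4945, 3937, 4020 and 6137 in the same order (B117H, B140H, average, difference). With only the arrays of B140H and B140P, 1186 were called. Leaving out single arrays gave 1273 to 2219 in B140H, 2110 to 3518 in B117H, 1758 to 2550 for the average, 2603 to 3397 for the difference, 6591 to 8695 for B140P against B117P and 7618 to 9709 for B140H against B117H. Without all A arrays the counts were 1915, 873, 1245 and 1661 (B117H, B140H, average, difference), without all B arrays 1487, 607, 772 and 1224, and without all C arrays 1066, 645, 699 and 1004. Without all C arrays 4883 were called for B140P against B117P and 5738 for B140H against B117H, in place of 8091 and 9304. These last fits hold fewer samples. For the others the cause was not tested. No measure of signal over background came with the values, so what it limits for Slc28a3 was not tested.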
